A study of Mus musculus with 18 samples.

Results

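The sites described here are 368 autosomal DMC1 sites at which the DMC1 value in Ewsr1-CKO spermatocytes was at most 0.7 of the value in B6 spermatocytes, out of 8744 autosomal sites (4.21%) and 9132 listed sites in all. They were selected on those 2 measured values, among sites that the deposited table lists as common to B6, Ewsr1-CKO and Prdm9 het. DMC1 is the meiotic recombinase that loads onto resected break ends, and the study mapped it by ChIP-seq in spermatocytes of mice aged 14 days. B6 was the strain C57BL/6J. Ewsr1-CKO mice lacked Ewsr1 conditionally through Stra8-iCre, a Cre recombinase driven by the promoter of Stra8, a gene that germ cells switch on as they enter meiosis. Prdm9 het mice were Prdm9+/-, with a single intact copy of Prdm9. The labels name no control that carries the Cre, and they do not give the share of cells in which Ewsr1 was deleted. H3K4me3 and H3K36me3, histone marks that PRDM9 places at hotspots, were used for Ewsr1-CKO only. Each of these 5 groups comprised 2 samples of the 18 in the series, but the deposited tables hold a single value per group and site. No difference below could therefore be set against the spread between animals, and no test was made.

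Meiotic recombination in mice starts from breaks at hotspots, short regions where PRDM9 binds DNA through its zinc fingers and methylates nearby histone H3 at lysine 4 and lysine 36. DMC1 ChIP-seq recovers both how often a hotspot is broken and how long its single-stranded DNA lasts before repair, and in bulk chromatin fewer cells with a break and less DMC1 per break cannot be told apart. EWSR1 is a nucleic acid binding protein of the FET family. H3K4me3 also marks the starts of active genes, and H3K36me3 also covers the bodies of transcribed genes, where another methyltransferase places it. Recombination in male mice is known to be frequent toward the distal ends of the chromosomes, away from the centromeres.

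The values are in RPM, read counts scaled to a fixed library total. The summed DMC1 values of B6 and Ewsr1-CKO over all sites are nearly equal in the files, so a low ratio means a smaller share of the DMC1 signal and not a known loss in amount. Because the sites were chosen by these columns, their DMC1 values in both are given as a description. Where several DMC1 values follow each other, the order is B6, Ewsr1-CKO, Prdm9 het. The sites ranged from 5.27 to 1194 RPM in B6, with a median of 66.2 RPM, and their median in Ewsr1-CKO was 39.8 RPM. Their ratio had a median of 0.634 and a lowest value of 0.146, and the median ratio over all autosomal sites was 1.12. Just inside the limit lay sites on chr3:102579179-102581470 (46.3 and 32.4 RPM), in Pum3 on chr19:27395611-27398431 (186 and 130 RPM) and in Nsd1, which encodes an H3K36 methyltransferase, on chr13:55316940-55319628 (107 and 74.6 RPM). Just outside it lay sites in Kcng3 (164 and 115 RPM), Wdr36 (547 and 383 RPM) and Kmt2c, which encodes an H3K4 methyltransferase (229 and 160 RPM). The limit thus falls within a continuous range.

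Both DMC1 columns consist of whole multiples of a single step, 0.129 RPM for B6 and 0.246 RPM for Ewsr1-CKO. If a step is a read, the low-ratio sites held a median of 515 reads in B6 and 162 in Ewsr1-CKO, with as few as 41 and 12. The exact 95% interval of the ratio, which covers counting error only, lay wholly at or under 0.7 at 120 of the 368 sites. Of these 120, 92 were among the 222 low-ratio sites at or above the autosomal B6 median of 47.3 RPM, so most sites on either side of that median did not meet this limit. A further 881 sites above 0.7 had an interval that reached 0.7 or less, so membership near the limit is uncertain.

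Sequence of these hotspots was not used here, but 7 low-ratio sites overlapped the promoter window of a RefSeq gene, the 250 bases before a listed gene start in GRCm38.p6, the assembly of mm10, or the 50 bases after it. That is 1.92% of the low-ratio sites with such windows on their chromosome, beside 1.95% of all such autosomal sites. The upstream 250 bases of 4 of these genes are shown because they span the range of H3K4me3 and CG content among the 7. Each runs 5′ to 3′ on the gene's strand, and capitals mark the dinucleotide CG, which reads the same on both strands and occurs in 92.1% of all RefSeq promoter windows of this length (median 6 per window).
Rgs19: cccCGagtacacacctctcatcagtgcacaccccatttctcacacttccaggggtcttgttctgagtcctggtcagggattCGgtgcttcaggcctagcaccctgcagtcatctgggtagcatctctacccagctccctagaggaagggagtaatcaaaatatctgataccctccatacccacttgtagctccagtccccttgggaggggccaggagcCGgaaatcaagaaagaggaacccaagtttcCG
Gm46165: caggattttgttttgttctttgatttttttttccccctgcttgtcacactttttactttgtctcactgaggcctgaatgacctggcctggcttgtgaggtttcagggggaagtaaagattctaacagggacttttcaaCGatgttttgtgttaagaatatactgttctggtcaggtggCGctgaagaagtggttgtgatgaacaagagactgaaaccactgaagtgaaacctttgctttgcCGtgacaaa
Gm15541: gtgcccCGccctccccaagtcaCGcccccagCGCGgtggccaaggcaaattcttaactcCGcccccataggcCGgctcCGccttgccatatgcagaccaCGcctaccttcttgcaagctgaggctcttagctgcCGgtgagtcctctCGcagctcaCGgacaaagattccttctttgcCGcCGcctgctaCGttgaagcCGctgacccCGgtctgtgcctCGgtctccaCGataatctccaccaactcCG
Gm35599: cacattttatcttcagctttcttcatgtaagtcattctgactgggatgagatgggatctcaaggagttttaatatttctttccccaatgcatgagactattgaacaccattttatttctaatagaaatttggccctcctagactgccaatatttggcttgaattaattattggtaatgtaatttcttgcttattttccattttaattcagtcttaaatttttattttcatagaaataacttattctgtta
Rgs19, a regulator of G protein signalling, has its window on the minus strand at chr2:181691818-181692067, wholly inside a low-ratio site at the distal end of chromosome 2. It holds 4 CG dinucleotides, and the site had 2.83 RPM of H3K4me3, beside DMC1 values of 11.1, 4.17 and 2.92 RPM. The window of Gm46165 (plus strand, chr1:154103613-154103862) holds 3 and lies inside the strongest of the 7 sites, with DMC1 values of 323, 185 and 84.5 RPM and 4.08 RPM of H3K4me3. The CG-rich window of Gm15541 (minus strand, chr7:27507960-27508209), with 19, lay at a site with the highest H3K4me3 of the 7, 4.67 RPM. The window of Gm35599 (plus strand, chr15:87803646-87803895) holds none, and its site had the lowest H3K4me3 of the 7, 0.435 RPM. The other 3 windows belong to Zbtb46, Gm36613 and Gm51472. Low-ratio sites were thus no more often at gene starts than autosomal sites in general.

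The low-ratio sites were crowded at the distal chromosome ends. Distances were measured to the last listed DMC1 site of each chromosome, and 116 of the 368 sites (31.5%, Wilson 95% interval 27.0 to 36.4%) lay within 10 Mb of it. For comparison, each low-ratio site was matched with the 5 autosomal sites above 0.7 that were nearest to it in B6 DMC1, which gave 1840 matched rows from 1457 distinct sites with a median of 66.3 RPM in B6. Of the matched rows, 4.08% lay within 10 Mb of the last site. The size of this excess, 27.4 percentage points, moved with the limit, to 43.8 points at a ratio of at most 0.6, 15.7 at 0.8 and 17.0 after the median ratio was set to 1. Read from the other side, 116 of 641 sites in the last 10 Mb were low-ratio sites (18.1%), and 252 of 8103 sites elsewhere (3.11%). At the proximal ends nothing comparable was seen, as 6.25% of the low-ratio sites and 7.01% of the matched rows lay within 10 Mb of the first listed site.

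The share was highest in the last 2 Mb. It was 58.3% (49 of 84 sites) in the last 1 Mb, 30.1% (25 of 83) from 1 to 2 Mb, 12.3% (7 of 57) from 2 to 3 Mb and 17.1% (20 of 117) from 3 to 5 Mb. From 5 to 10 Mb 15 of 300 sites qualified, and from 20 to 50 Mb, the lowest of the distance classes, 39 of 2117 (1.84%). The share was higher again from 50 to 100 Mb (111 of 3329, 3.33%) and from 100 to 200 Mb (87 of 1954, 4.45%). Among the 94 sites within 1 Mb of the first listed site there was none.

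**Figure D1:**
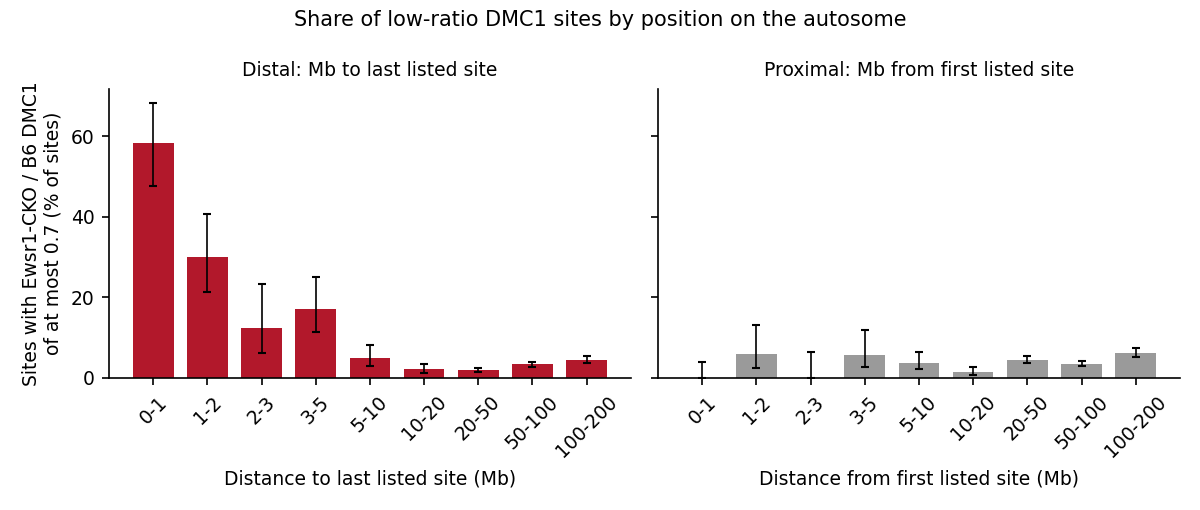
Percent of autosomal DMC1 sites with an Ewsr1-CKO over B6 DMC1 ratio of at most 0.7, by distance in Mb from the last listed site (left) and from the first listed site (right) of the chromosome, with Wilson 95% intervals over sites as error bars. The bar for the last 1 Mb stands at 58.3%, and no such rise appears at the proximal side.

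Chromosome ends differed from each other. In the last 5 Mb, 15 of 20 sites on chromosome 16, 13 of 19 on chromosome 7, 12 of 19 on chromosome 11 and 9 of 19 on chromosome 8 were low-ratio sites. These 4 ends, picked after their values were seen, held 49 of the 101 low-ratio sites in the last 5 Mb of all autosomes. The other 15 ends held 52 among 264 sites (19.7%). Chromosomes 13, 17 and 18 had none among 13, 23 and 13 sites. In the last 10 Mb, chromosome 13 had 3 among 41 sites and chromosome 18 had 1 among 36, while chromosome 17 had none among 41. The last listed site itself was a low-ratio site on 12 of 19 autosomes. The concentration at distal ends was therefore shared by many chromosomes but not by all.

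**Figure D2:**
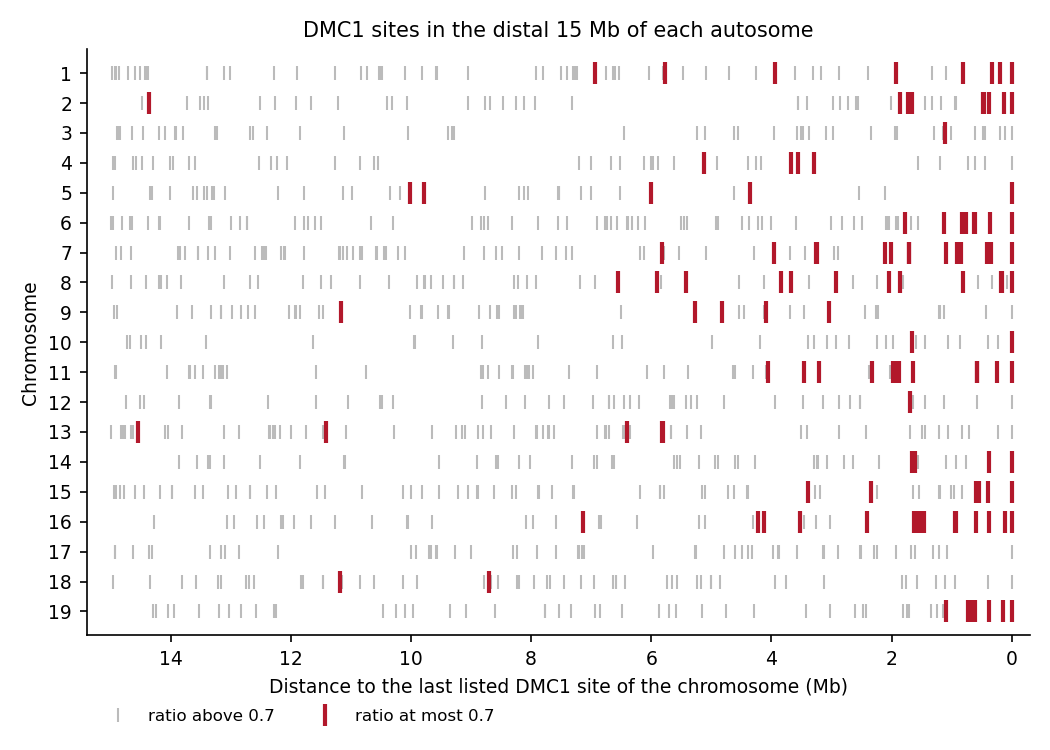
Each tick is a listed DMC1 site in the distal 15 Mb of an autosome, placed by its distance in Mb to the last listed site (right edge). Red ticks, the sites with a ratio of at most 0.7, gather within 5 Mb of the right edge on chromosomes 7, 8, 11 and 16 and are missing there on chromosomes 13, 17 and 18.

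Low-ratio sites also followed each other along the chromosome. Among low-ratio sites with a further listed site on the chromosome, the next one was also a low-ratio site in 83 of 356 (23.3%), while low-ratio sites made up 4.21% of all autosomal sites. In the last 10 Mb this share was 62.5% (65 of 104), against 18.1% of the sites there. Within that stretch, however, low-ratio sites made up from 5% (5 to 10 Mb) to 58.3% (last 1 Mb) of the sites. Neighbours were not compared at equal position, so this was not shown to be separate from the distal excess. Farther from the ends it was 6.77% (17 of 251, Wilson 95% interval 4.27 to 10.6%), against 3.11%. All 8 runs of 4 or more consecutive low-ratio sites, 57 sites in total, ended at the last listed site of their chromosome. More than 10 Mb from it, the longest run was 2.

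The longest run comprised the last 12 listed sites of chromosome 16, over 2.42 Mb. In B6, DMC1 there ranged from 21.1 to 89.4 RPM with a median of 34.5 RPM. The range in Ewsr1-CKO was 6.87 to 40.0 RPM (median 17.6 RPM), and that in Prdm9 het 1.27 to 26.7 RPM (median 7.14 RPM). Of the 12, 9 lay in protein-coding genes, among them Erg, an ETS transcription factor gene, Dscam, a gene for a cell adhesion molecule, and Prdm15, a relative of Prdm9 by its PR domain. In Prdm15, at chr16:97793289-97795019, the DMC1 values were 21.1, 6.87 and 5.42 RPM, with 2.05 RPM of H3K4me3. H3K4me3 was uneven within the run, from 0.318 to 2.72 RPM, and 8 of the 12 overlapped a listed H3K4me3 site.

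The run of 9 sites at the end of chromosome 7 spanned 2.02 Mb, and its DMC1 summed to 272 RPM for B6 but 110 RPM for Ewsr1-CKO. It began in Kcnq1, a potassium channel gene in an imprinted region, and took in 2 sites in Cars, the gene for a cysteinyl-tRNA synthetase. The DMC1 values were 66.5, 22.1 and 14.6 RPM at the first Cars site and 60.8, 22.8 and 23.0 RPM at the second. All 9 overlapped a listed H3K4me3 site, and their H3K4me3 was high, with a median of 3.19 RPM beside 0.879 RPM over all autosomal sites.

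**Figure D3:**
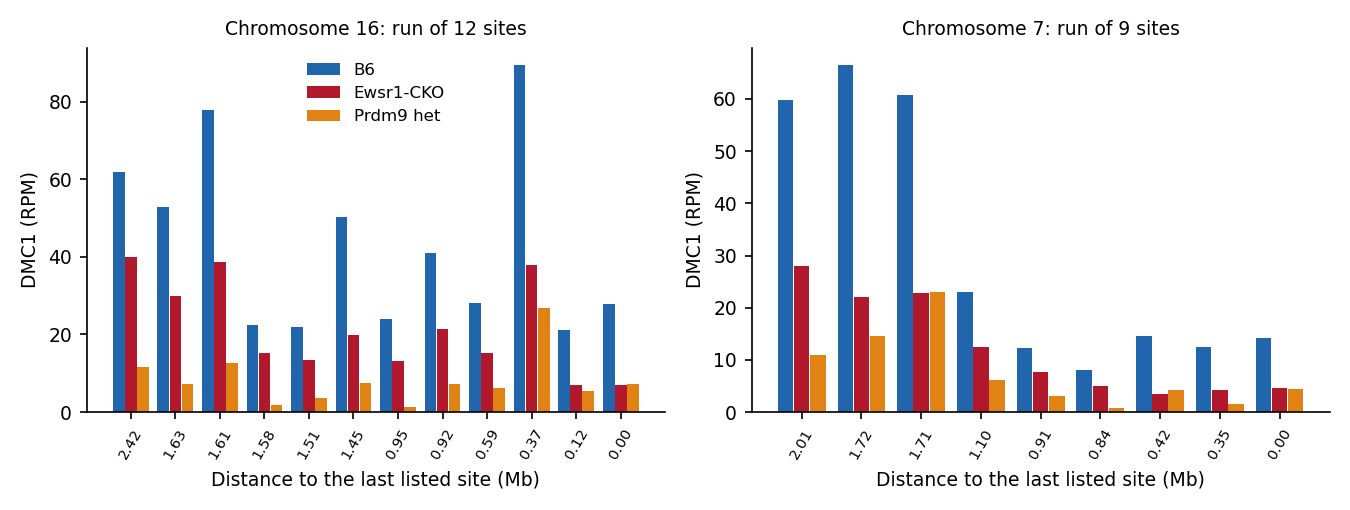
DMC1 in RPM at each site of the 2 longest runs, in B6 (blue), Ewsr1-CKO (red) and Prdm9 het (gold), with sites in order of position and labelled by their distance in Mb to the last listed site. Ewsr1-CKO stands below B6 at each site because the sites were chosen that way, and Prdm9 het, whose column has a lower total, follows the order of the B6 bars only in part.

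Runs of 8 sites closed chromosomes 19 and 11. On chromosome 19 the sites covered 1.10 Mb, with median DMC1 of 93.2 RPM (B6) and 39.0 RPM (Ewsr1-CKO). Of these sites, 3 lay in genes: Cacul1, Eif3a, which encodes a translation initiation factor subunit, and Grk5, which encodes a G protein-coupled receptor kinase. On chromosome 11 the sites covered 1.98 Mb, with medians of 39.5 and 19.9 RPM. There 3 of them lay in Rptor, which encodes a subunit of the mTORC1 kinase complex. A run of 7 at the end of chromosome 6 included 2 sites in Ipo8, an importin gene. These runs shared their place at the end of the chromosome but not their B6 level.

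The run of 5 at the end of chromosome 2 was compact, 0.477 Mb. Its sites lay in Rtel1 (2 sites), Zbtb46, Rgs19 and Myt1, and all 5 had a counting interval under 0.7. Rtel1 encodes a helicase that protects telomeres. At its first site, chr2:181336431-181338526, the DMC1 values were 47.6, 15.2 and 15.8 RPM. There H3K4me3 was 3.03 RPM, and H3K36me3, which is given over the listed H3K4me3 site that overlaps, was 7.20 RPM. H3K4me3 was between 2.83 and 4.53 RPM at all 5, above the autosomal 90th percentile of 2.09 RPM.

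Low-ratio sites lay in genes more often than sites of the same strength. The midpoint was inside a protein-coding gene at 261 of 368 sites (70.9%, Wilson 95% interval 66.1 to 75.3%), at 52.1% of the matched rows and at 52.8% of all autosomal sites. The share was alike near the ends and away from them, 70.7% of the 116 sites in the last 10 Mb and 71.0% of the 252 others, with 51.2% and 53.1% in sites matched within the same stretch. Among sites more than 10 Mb from the end, those in the top 10% by B6 DMC1 reached 84.6% (77 of 91), beside 55.2% in their matched rows, and the weaker ones 63.4% (102 of 161), beside 51.9%. The surroundings were also richer in genes, with a median of 10 protein-coding genes within 500 kb on either side, against 6 in the matched rows. RefSeq gene spans do not separate exons from introns, so neither was assigned.

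The 261 sites fell in 242 genes or overlapping gene pairs, and 37 of them shared 18 genes. These included Celf2, an RNA-binding protein gene (DMC1 of its 2 sites summed to 545 RPM for B6 and 347 RPM for Ewsr1-CKO), Agtpbp1 (455 and 255 RPM), Atf2, a transcription factor gene (403 and 269 RPM), Exoc4, which encodes an exocyst subunit (401 and 231 RPM), and Htt, the huntingtin gene (301 and 191 RPM). Sites in one gene are neighbours and do not count as separate evidence.

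H3K36me3 per site was higher at low-ratio sites, but not relative to H3K4me3. It was known in Ewsr1-CKO only where a site overlapped a listed H3K4me3 site, at 237 of the 368. The median was 2.84 RPM there and 1.73 RPM in the matched rows, a ratio of 1.64, and 1.31 against 0.872 RPM when divided by the length of the H3K4me3 site in kb. H3K4me3 of the same listed sites was higher too, 1.73 against 1.16 RPM, and the ratio of H3K36me3 to H3K4me3 had medians of 1.37 and 1.40, so on that scale H3K36me3 was not higher. Near the distal ends the medians were 2.66 and 1.18 RPM, and away from them 3.01 and 1.83 RPM. When sites in genes were compared only with matched sites in genes, the medians were 3.21 and 2.19 RPM. Outside genes they were 1.53 and 1.34 RPM, which joins 1.56 against 0.935 RPM in the last 10 Mb with 1.43 against 1.44 RPM farther away, where there was no excess. Whether the difference in H3K36me3 itself differed between these classes was not tested.

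H3K4me3 in Ewsr1-CKO had a median of 1.34 RPM at low-ratio sites (interquartile range 0.656 to 2.48 RPM) and 1.02 RPM in the matched rows, a ratio of 1.31, with 222 of 368 sites above the median of their own 5 matched sites. This summary joins unlike groups. In the last 10 Mb the median was 1.53 RPM, beside 0.881 RPM at distal sites of the same B6 strength, and 90 of 116 sites stood above their own matches. More than 10 Mb from the end, the 91 sites in the top 10% by B6 DMC1 had 2.41 RPM against 1.60 RPM, with 68 of 91 above. The remaining 161 sites had 0.672 RPM against 0.825 RPM, with 66 of 161 above. In that last group only 27 sites had a counting interval wholly at or under 0.7, compared with 48 of 116 and 45 of 91 in the others. The part of position, gene content and B6 strength in these differences was not tested. The marks in B6 were not analysed here, so a level in Ewsr1-CKO is not a change from B6.

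The overlap with listed H3K4me3 sites also varied between these groups. Of all 368 low-ratio sites, 237 overlapped one (64.4%, Wilson 95% interval 59.4 to 69.1%), beside 61.6% of the matched rows, a share inside that interval. Over all autosomal sites it was 55.9%. For the 120 sites with a counting interval under 0.7 the shares were 85.8% and, in their matched rows, 69.5%. The sign of this difference depended on the sites compared: it was -8.02 percentage points without the last 10 Mb and 14.1 points when matched on Ewsr1-CKO. In the last 10 Mb 87 of 116 did, beside 339 of 580 distal matched rows (58.4%). Among the strong sites farther away it was 89.0% against 88.1%, and among the weaker ones 42.9% against 55.9%. Of the 368 low-ratio sites, 121 were in the top 10% of autosomal sites by H3K4me3. Low-ratio sites made up 13.8% of these 875, beside 4.21% of all autosomal sites. This share was not matched on B6 strength, and the top 10% by B6 DMC1 also held many, 98 of 877 (11.2%).

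**Figure D4:**
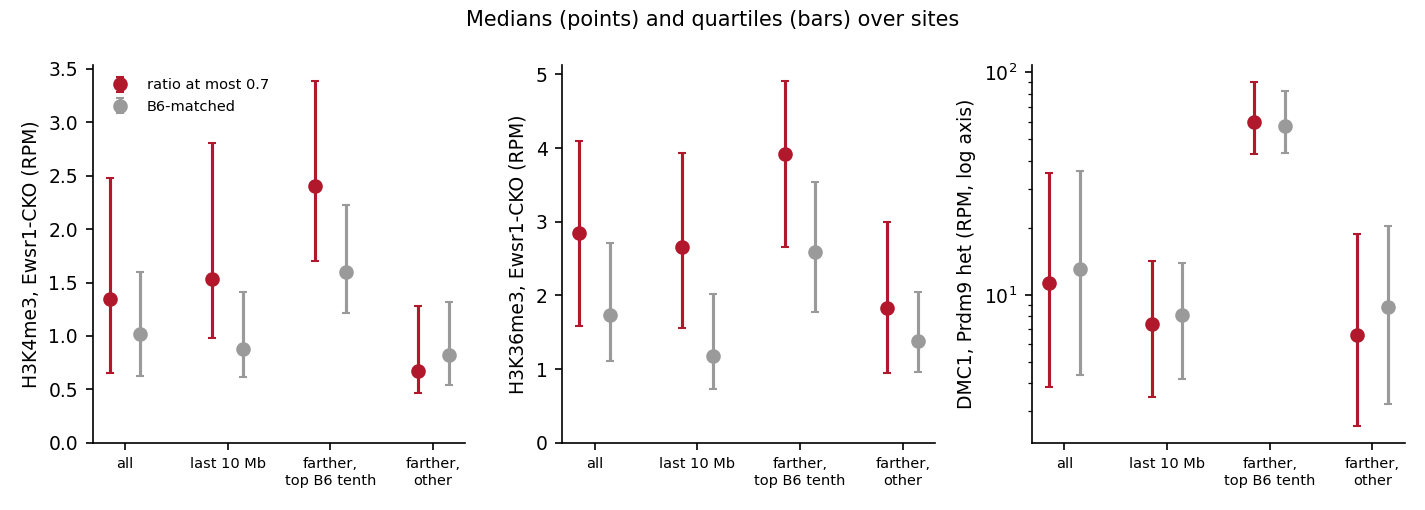
Medians (points) and quartiles (bars) over sites of H3K4me3 and H3K36me3 in Ewsr1-CKO and of DMC1 in Prdm9 het, in RPM, for low-ratio sites (red) and their B6-matched sites (grey), for all sites, those in the last 10 Mb and those farther away in or below the top 10% by B6 DMC1. The low-ratio sites stand above the matched ones in both marks in the last 10 Mb and at strong sites, where H3K4me3 was 1.53 against 0.881 RPM and 2.41 against 1.60 RPM, while at the weaker sites farther away H3K4me3 and Prdm9 het lie below the matched sites (0.672 against 0.825 RPM and 6.63 against 8.79 RPM) and H3K36me3 above them (1.82 against 1.39 RPM).

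Among low-ratio sites of at least median B6 strength, the highest H3K4me3 was found at the last listed site of chromosome 19, chr19:61151791-61154940. It had 8.75 RPM of H3K4me3, and its DMC1 values were 150, 52.0 and 50.8 RPM. The last listed site of chromosome 10, chr10:130542171-130544985, followed with 8.67 RPM and DMC1 of 115, 30.4 and 38.9 RPM. Neither overlapped a listed H3K4me3 site or a protein-coding gene, and the H3K4me3 of their 5 matched sites did not exceed 2.28 and 3.75 RPM. The third was in Capzb, an actin capping protein gene, at chr4:139205097-139208380, with 7.61 RPM of H3K4me3, 9.15 RPM of H3K36me3 and DMC1 of 169, 90.3 and 54.9 RPM. At these 3 sites the Prdm9 het value also exceeded the highest of the 5 matched sites, which was 45.7, 30.1 and 53.2 RPM. At the other extreme, a site in Cadps2 on chr6:23382997-23385395 had 0.258 RPM of H3K4me3, with DMC1 of 57.1 and 36.1 RPM. The next lowest were near Cyp2a22 on chr7:26961615-26964129 (0.284 RPM) and in Il18rap on chr1:40535663-40538308 (0.339 RPM). None of these 3 overlapped a listed H3K4me3 site.

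DMC1 in Prdm9 het came from separate samples, and its level did not enter the ratio that chose the sites, but every listed site, low-ratio or not, is given as common to Prdm9 het as well. Its column has a lower total than the others, so only sites within the column were compared. The median was 11.3 RPM at low-ratio sites and 13.1 RPM in rows matched on B6, a ratio of 0.865, and 142 of 368 sites stood above the median of their own matches. The direction depended on the column matched, both of which chose the sites: the ratio was 1.25 when matched on the mean of B6 and Ewsr1-CKO and 1.94 when matched on Ewsr1-CKO. In the last 10 Mb the medians were 7.41 and 8.16 RPM, at strong sites farther away 60.1 and 57.5 RPM, and at the weaker ones 6.63 and 8.79 RPM, where 43 of 161 sites stood above their own matches. Restricted to the 120 sites with a counting interval under 0.7, they were 26.2 and 25.2 RPM.

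**Figure D5:**
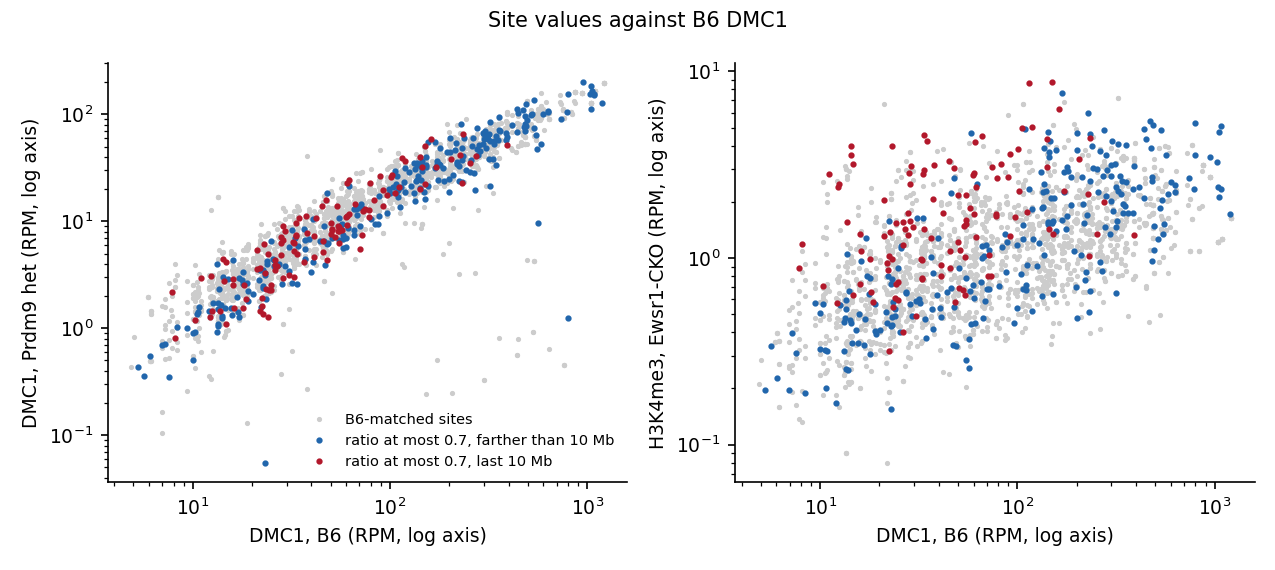
DMC1 in Prdm9 het (left) and H3K4me3 in Ewsr1-CKO (right) against DMC1 in B6, all in RPM on log axes, for low-ratio sites in the last 10 Mb (red), low-ratio sites farther away (blue) and B6-matched sites (grey). In the left panel both colours lie along the grey band, apart from a few sites such as one at 800 RPM in B6 with 1.25 RPM in Prdm9 het, and in the right panel the red points lie toward its upper edge.

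The lowest ratio among sites of at least median B6 strength was in Fcna, the gene for the lectin ficolin A, at chr2:25629393-25632180. Its DMC1 values were 519, 75.9 and 97.7 RPM. The Prdm9 het value was inside the range of its 5 matched sites, 74.1 to 111 RPM, and H3K4me3 was 1.26 RPM, toward the lower end of their 0.957 to 3.89 RPM. The listed sites on either side had ratios of 0.897 and 0.913, so the site stood alone, and it lay 156 Mb from the distal end. The next lowest 5 were all within 2 Mb of the last listed site: those at the ends of chromosomes 10 and 19, the first Rtel1 site and the 2 Cars sites.

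The 6 strongest low-ratio sites in B6 all lay far from the distal ends. They lay in Atad2b on chr12:4972671-4976035 (1194, 782 and 127 RPM), in Braf, a kinase gene, on chr6:39638892-39641921 (1083, 646 and 151 RPM), and in Ankfn1 on chr11:89610348-89613511 (1079, 650 and 156 RPM). The next 3 were in Hdac9, a histone deacetylase gene, on chr12:34593497-34596701 (1054, 708 and 167 RPM), 3.86 kb from Nedd1 on chr10:92679224-92682555 (1047, 669 and 184 RPM), and in Pcm1, a centriolar satellite gene, on chr8:41325225-41328442 (1044, 727 and 113 RPM). All 6 overlapped a listed H3K4me3 site, and 5 of the 6 lay in a gene. None was nearer than 32.1 Mb to the last listed site, though the Atad2b site lay 1.80 Mb from the first, and no next neighbour of these 6 was a low-ratio site. Their Prdm9 het values, 113 to 184 RPM, overlapped those of their matched sites, the same 5 for each, at 127 to 198 RPM.

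The highest Prdm9 het value of the low-ratio sites was 200 RPM, in Dennd1a on chr2:38136006-38139189, where B6 had 949 RPM and the conditional knockout 619 RPM. The opposite was seen in Nrg1, the gene for a growth factor of ErbB receptors, at chr8:32248524-32251667. There B6 had 800 RPM of DMC1, the conditional knockout 534 RPM and Prdm9 het only 1.25 RPM, while H3K4me3 in Ewsr1-CKO was 5.29 RPM. Sites of like B6 strength had a median of 101 RPM in Prdm9 het, though 1 of its 5 matches was at 0.454 RPM. The next lowest, among low-ratio sites of at least median B6 strength, were in Dip2b on chromosome 15 (48.1 RPM in B6, 4.32 RPM in Prdm9 het) and Ttc13 on chromosome 8 (70.6 and 5.52 RPM), both within 5 Mb of the distal end.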

How the data were processed

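DMC1, H3K4me3 and H3K36me3 ChIP-seq values were taken from a pair of tables in RPM (read counts scaled to a fixed library total) deposited by the authors, each listing sites shared between genotypes with 1 column per group. The denominator of the RPM is not stated. Per the submitters' processing notes, BWA 0.5.10, Trimmomatic 0.32 and the build mm10 were used. The peak caller and the handling of replicates are not given in the sources used here. Samples were grouped by title, 6 columns were used, and 4 columns that no sample of the series matched were not used. Of 5787 lines of the H3K4me3 table, 220 repeated an interval and were averaged, leaving 5567 sites.

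Low-ratio sites are autosomal sites with Ewsr1-CKO over B6 DMC1 of at most 0.7. Each was matched, with replacement, to the 5 other autosomal sites nearest in log2 B6 DMC1. Medians and shares were compared without p-values, since no replicate columns exist. Intervals (95%) for shares are Wilson intervals over sites. For the ratio of a single site they are exact binomial intervals taking 1 step of a column as 1 read, which cover counting error only. For a ratio of medians, the interval over sites came from the ranked values at low-ratio sites. The matched median or share was held fixed. No interval covers the spread between animals, and neighbouring sites are not independent. No count model was fitted. The depth of the other columns is unknown. Overlap required at least 1 bp, and genes and promoter windows came from RefSeq GRCm38.p6. Promoter windows on chromosome 18 were not used here. Named sites were those with the highest B6 DMC1 (6), the lowest ratio (6), the values nearest the limit (3 on each side), the 3 highest and 3 lowest H3K4me3 and Prdm9 het values, and the 5 longest runs. The lowest ratios and the H3K4me3 and Prdm9 het extremes were taken at or above the median B6 DMC1. The run on chromosome 2 and the genes with several sites were named after their values were seen. The sites, lists and rules were chosen with earlier results of these data known. Code was tested on simulated data. Python 3.11.15, numpy 2.4.6, pandas 2.3.3, scipy 1.17.1 and matplotlib 3.10.9 were used.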

Additional observations from a re-analysis of the deposited data

How the results depend on the processing

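The distal excess of 27.4 percentage points (31.5% against 4.08%) was 43.8 with a ratio of at most 0.6, 15.7 with 0.8, 17.0 with equal medians (a ratio of at most 0.7 after division by the autosomal median ratio), 19.4 at or above the B6 median and 35.7 for the 120 sites with a counting interval under 0.7, an alternative chosen after seeing the data. The excess in genes (18.9 points), whose alternatives were also chosen later, was 24.8 at or above the B6 median and 26.3 for the 120 sites. The H3K36me3 ratio (1.64) was 2.08 at 0.6, 1.43 at 0.8, 1.91 matched on Ewsr1-CKO and 1.95 for the 120 sites. These 3 results kept their direction in each alternative run. The H3K4me3 ratio (1.31) was 1.68 at 0.6, 1.54 matched on the mean of B6 and Ewsr1-CKO, 1.82 matched on Ewsr1-CKO, 1.99 for the 120 sites and 1.02 without the last 10 Mb. The difference in overlap with H3K4me3 sites (2.83 points) was 10.5 at 0.6, 8.59 matched on the mean, 14.1 matched on Ewsr1-CKO and 16.3 for the 120 sites, but -8.02 without the last 10 Mb, -0.054 against sites of typical ratio and -0.27 when matched also on the last 10 Mb, so its direction is not settled. The Prdm9 het ratio (0.865) passed to the other side of 1 at 0.6 (1.01), at or above the B6 median (1.02), matched on the mean (1.25), matched on Ewsr1-CKO (1.94) and for the 120 sites (1.04). The excess of low-ratio neighbours (19.1 points) was 24.9 at 0.6 and 3.66 without the last 10 Mb. Of 82 recomputed values, the other 52 moved by less than the interval over sites. The cause of these shifts was not tested. No paired analysis was possible because each group has a single column without a replicate number, and leaving out a replicate or fitting single samples was not run for the same reason. Depth limits the choice of sites, since most low-ratio sites, both below the B6 median and at or above it (where 92 of 222 met the limit), had a counting interval that reached above 0.7.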
